A study of Mus musculus with 4 samples.

Results

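The insulin-like growth factor (IGF) axis was examined through 10 genes chosen by name: the ligand Igf1, the receptors Igf1r and Insr, the docking proteins Irs1 and Irs2, and the binding proteins Igfbp2, Igfbp3, Igfbp4, Igfbp5 and Igfbp7. All 10 were present among the 55385 genes of the expression table, and 7 of them had a mean of at least 10 normalized counts and were tested in one fit with all such genes, 14238 in total. The data are bulk RNA sequencing of 4TO7 cells, a mouse mammary carcinoma line, recovered from tumors in Balb/c mice. There were 2 libraries from tumors that were resistant to immunotherapy with an antibody against PD-L1, a checkpoint ligand, and 2 from control tumors. For every sample, controls included, one label gives the treatment as untreated and the treatment protocol names anti-PD-L1 in vivo, so what the control tumors received is not settled by the labels. Age, dose and time on treatment are not among the labels. All samples share the line and the strain, the cells were harvested in culture medium after enzymatic digestion, and the labels do not state whether replicate tumors grew in different mice, so p-values reflect the variation among these 4 libraries only, which may be technical.

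IGF1 and IGF2 are secreted growth factors that act on the receptor tyrosine kinase Igf1r and, with insulin, on its close relative Insr. The activated receptors phosphorylate the docking proteins Irs1 and Irs2, which pass the signal to phosphoinositide 3-kinase, Akt and mTORC1 and hold back the FoxO transcription factors. Secreted binding proteins hold IGFs outside the cell, where they can either withhold the ligand from the receptor or deliver it after a protease has cut them, and mammary epithelium and breast carcinomas are among the settings where this balance has been studied most.

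The libraries held 45666470 to 49592054 counted reads. Of the epithelial markers, the keratin genes Krt8 and Krt18 were abundant in all of them, with Krt8 between 12649 and 21116 and Krt18 between 27813 and 42630 normalized counts, that is, read counts divided by 1 size factor per library. The other markers of this list were mixed: of all 8, Krt19, Krt7 and Cldn4 rose (2.97 ± 0.25, 1.90 ± 0.33 and 1.95 ± 0.29), Epcam and Cldn3 fell (-1.53 ± 0.25 and -3.96 ± 0.41) and 3 did not pass. Among the 8 leukocyte markers, no gene was tested, and the summed level was 1.02 to 5.36 normalized counts. Control replicate 2 stood apart in Col1a2, a fibroblast collagen gene, which had 76.7 normalized counts there and 0.961 to 1.07 in the other libraries. Col3a1 and Thy1, also fibroblast markers, had 13 and 10 reads in control replicate 2 and 0 or 1 in each other library. The fibroblast markers Fap, Dcn, Pdgfra, Lum and Dpt were not highest in that library. Col1a1 was less uneven, at 33.6 and 35.4 normalized counts in resistant and 12.5 and 69.6 in control libraries. The control pair was also the less alike of the pairs, with a standard deviation of the log2 difference of 0.45 against 0.31 in the resistant pair.

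Of the 7 tested genes, only Igfbp7 was called at an adjusted p under 0.05, and it was about 4-fold higher in the resistant libraries. It encodes a secreted protein related to the classical binding proteins, which binds IGFs weakly, also binds insulin, and is deposited in vascular basement membranes. Igfbp7 (ENSMUSG00000036256.13, chromosome 5, 77349240 to 77408041, minus strand, GRCm38) had 384 and 441 normalized counts in resistant replicates 1 and 2, and 99.9 and 87.7 in control replicates 1 and 2. Both resistant libraries lay far above both controls, and the members of each pair lay close together. The group levels were 413 ± 40.1 and 93.8 ± 8.60 normalized counts (mean ± SD, n = 2 each), which rest on 377, 411, 104 and 87 reads. On the log2 scale of normalized counts plus 1, the difference was 2.12 ± 0.20 (SE; limma, adjusted p = 0.00108). Its 95% interval, 1.66 to 2.59, corresponds to a 3.16-fold to 6.01-fold rise. Leaving out each library in turn gave 2.03 to 2.22, and the call held each time.

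Of the 7 tested genes, 1 rose and none fell at an adjusted p under 0.05. At an unadjusted p under 0.05, 1 was higher and 0 were lower, and limma voom on the recovered reads also gave 1 and 0. The share of all tested genes at that unadjusted threshold is not given, so counts at it, here and below, only describe the genes. Over all genes tested, 10.1% were called, 5.32% as higher and 4.73% as lower. Both resistant libraries lay above both controls for 4 of the 7 (Igf1, Insr, Igfbp4 and Igfbp7) and below both for 0. Such groups without overlap were found for 56.7% of all tested genes, 28.4% with the resistant libraries above and 28.3% with them below. In either direction, 4 of 7 is close to 56.7%. All 4 had the resistant libraries above, for which the share of all tested genes is 28.4%, and 7 genes are few to compare. The median log2 fold change of the 7 was 0.17, beside 0.0023 for all tested genes.

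**Figure D1:**
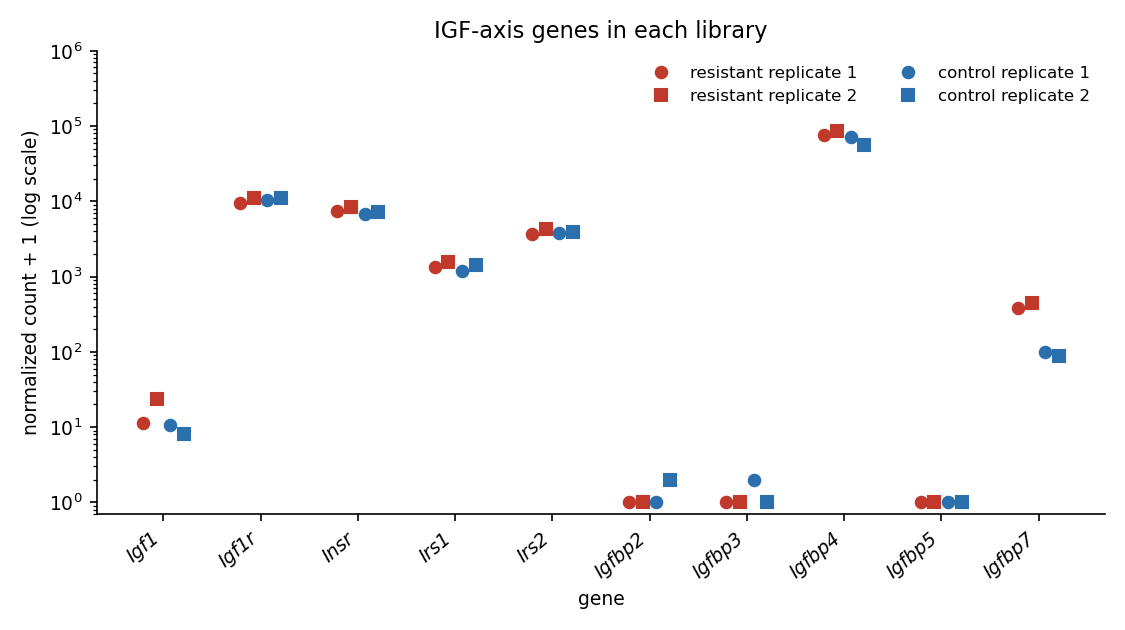
Normalized count plus 1 (log scale) of the 10 genes in each library, with red for resistant, blue for control, circles for replicate 1 and squares for replicate 2. Only Igfbp7 shows red and blue points well apart (384 and 441 against 99.9 and 87.7), and Igfbp2, Igfbp3 and Igfbp5 sit at or next to 0 reads.

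**Figure D2:**
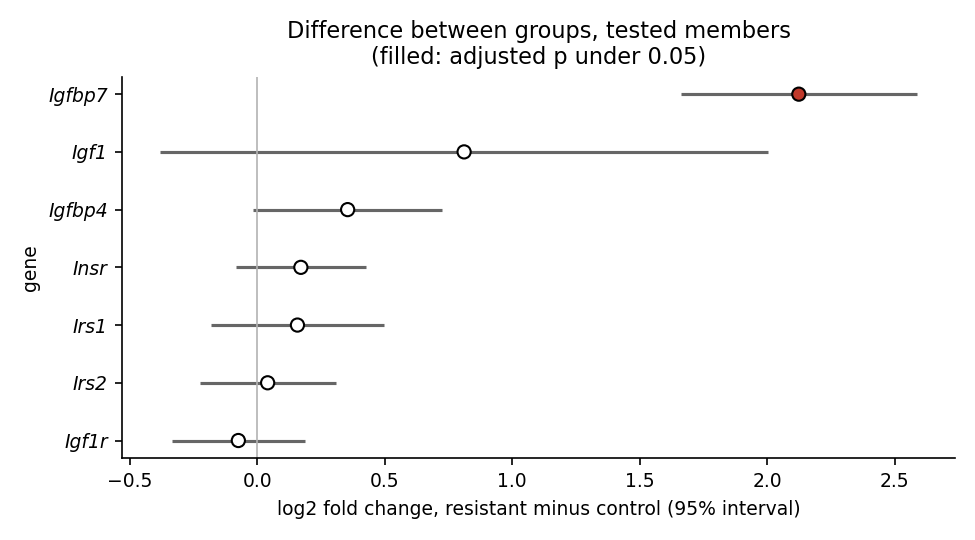
Log2 fold change, resistant minus control, of the 7 tested genes, with lines for the 95% interval and a filled point for an adjusted p under 0.05. The interval of Igfbp7 runs from 1.66 to 2.59, and those of the other 6 genes include 0.

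The binding proteins fell into 3 abundance classes. Igfbp4, which binds IGF1 and IGF2 and is mostly known as an inhibitor of their action, was among the most abundant transcripts of these cells. It had 75741 and 86286 normalized counts in the resistant libraries and 71052 and 56266 in the controls (ENSMUSG00000017493.12, chromosome 11, 99041244 to 99054392, plus strand). This placed its mean above 99.7% of tested genes. The groups did not overlap, but control replicate 1 lay close to resistant replicate 1, and the difference of 0.35 ± 0.16 did not pass (limma, adjusted p = 0.207; 95% interval -0.016 to 0.73). Without control replicate 1 it was 0.52 and passed (adjusted p = 0.00226), and without control replicate 2 it was 0.19 (adjusted p = 0.38). In both of those fits the spread comes from the resistant pair alone. The value thus turned on which control was kept.

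Igfbp2, Igfbp3 and Igfbp5 were at or near 0. Igfbp5, which binds IGFs and matrix and is known for its induction in the involuting mammary gland, had 0 reads in all 4 libraries. A count of 0 allows up to 3 reads, or 2.88 to 3.22 normalized counts, per library, a limit that covers counting error only. Igfbp3, the main carrier of IGFs in serum, had 1 read in control replicate 1 and 0 in the others. Igfbp2, which carries an integrin-binding motif beside its IGF site, had 1 read in control replicate 2 and 0 in the others. No fold change is given for these 3 genes, since both groups were under that limit. Igfbp2 and Igfbp5 are neighbours on chromosome 1, 5.46 kb apart, and Igfbp3 lies 3.54 kb from Igfbp1 on chromosome 11, which had no read either.

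Among the other members of the family, Igfbp6, which prefers IGF2, was the only further one that could be tested. It had 4119 and 4175 normalized counts in resistant and 5268 and 4095 in control libraries, and its difference of -0.16 ± 0.14 did not pass (limma, adjusted p = 0.496). The groups overlapped, since control replicate 2 was the lowest of the 4. The per-length levels put these genes on one scale. Divided by the length of all annotated exons, Igfbp4 stood at 17151 and 19539 normalized counts per kb in resistant and 16090 and 12741 in control libraries. Igfbp7 stood at 318 and 365 against 82.6 and 72.6 normalized counts per kb. Igfbp4 was therefore 54.0 and 53.6 times as abundant per kb as Igfbp7 in the resistant libraries and 195 and 176 times in the controls. Of the summed per-kb level of Igfbp1 to Igfbp7, Igfbp7 made up 1.5% and 1.54% in resistant and 0.395% and 0.44% in control libraries. Igfbp4 made up 76.9% to 82.6% of that sum, and Igfbp6 nearly all of the rest. Even after its rise, Igfbp7 remained a small part of the binding protein transcripts.

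The promoters of 3 binding protein genes are shown because these genes span the whole range, from 0 reads (Igfbp5) through the gene that rose (Igfbp7) to the most abundant (Igfbp4). Each sequence is the 250 bases before the RefSeq start site on GRCm38.p6, read 5′ to 3′ on the gene's strand. Capitals mark the GC box GGGCGG and the TATA box TATAAA, searched on both strands, with overlapping matches counted.

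Igfbp7, chr5:77408046-77408295, minus strand: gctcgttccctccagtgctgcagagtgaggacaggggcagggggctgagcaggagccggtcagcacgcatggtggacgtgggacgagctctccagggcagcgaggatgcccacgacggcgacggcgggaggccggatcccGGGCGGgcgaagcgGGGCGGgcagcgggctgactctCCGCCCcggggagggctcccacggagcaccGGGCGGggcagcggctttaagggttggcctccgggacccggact

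Igfbp4, chr11:99040994-99041243, plus strand: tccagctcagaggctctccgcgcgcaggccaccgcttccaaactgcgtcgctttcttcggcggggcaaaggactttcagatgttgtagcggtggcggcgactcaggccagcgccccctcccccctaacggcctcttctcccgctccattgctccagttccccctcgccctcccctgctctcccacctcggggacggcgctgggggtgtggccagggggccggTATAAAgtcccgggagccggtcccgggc

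Igfbp5, chr1:72874866-72875115, minus strand: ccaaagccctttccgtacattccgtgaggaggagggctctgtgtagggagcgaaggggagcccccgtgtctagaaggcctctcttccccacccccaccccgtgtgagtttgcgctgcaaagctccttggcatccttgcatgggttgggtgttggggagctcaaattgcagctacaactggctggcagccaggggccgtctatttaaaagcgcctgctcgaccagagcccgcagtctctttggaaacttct

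The Igfbp7 window held 4 GC boxes and no TATA box, at 74% G and C with 26 CpG dinucleotides. Igfbp4 had a TATA box close to its start site and no GC box, with 69.2% G and C and 22 CpG. Igfbp5 had neither motif, with 58.8% G and C and 10 CpG. Among 32841 mouse promoter windows of the same length, 32.7% held a GC box, 4.09% held at least 4, and 12.4% held a TATA box, with a median of 52.4% G and C and 6 CpG. Of the 10 genes, 9 had a window in the RefSeq table, and none of these held the FoxO site GTAAACA, which 3.17% of all windows held. The second window of Igfbp2 held the AP-1 site TGACTCA, which 4.46% held. These counts describe the letters of the windows only, and no measurement of the promoters themselves was made.

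None of the other tested genes within 5 Mb of Igfbp7 was called as higher. The last exon of Igfbp7 overlaps that of Polr2b, which encodes a subunit of RNA polymerase II, by 85 bases on the opposite strand. This is 7.03% of the exon bases of Igfbp7. The strand setting of the read counting is not given here, so reads in that overlap cannot be assigned with certainty. Polr2b itself had 6748 and 6238 normalized counts in resistant and 6041 and 6800 in control libraries, with overlapping groups and a difference of 0.018 ± 0.11 (limma, adjusted p = 0.939). On the other side, the nearest tested gene was the adhesion receptor gene Adgrl3, 3612 kb away, which fell by 2.84 ± 0.24 on the log2 scale (limma, adjusted p = 0.000815). Within 5 Mb, 35 other genes were tested, and all but Adgrl3 lay on the side of Polr2b. Their median was -0.044, 0 rose and 2 fell in limma. Of all tested genes, 5.32% rose and 4.73% fell, so few calls would be found among 35 genes at those shares.

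**Figure D3:**
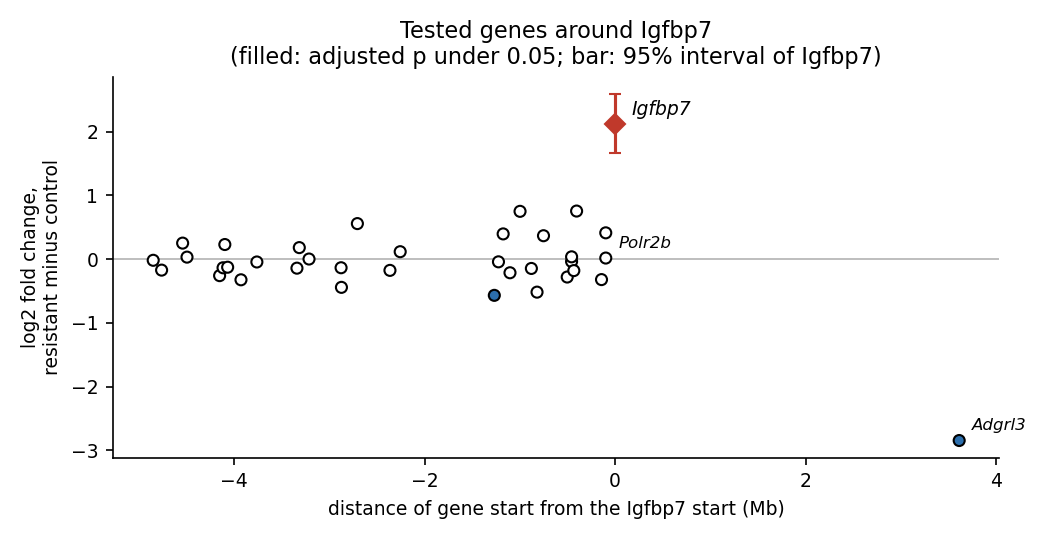
Log2 fold change, resistant minus control, of the tested genes within 5 Mb of Igfbp7, against the distance of their start from its start in Mb; the red diamond is Igfbp7 with its 95% interval, and filled blue points passed the threshold. Igfbp7 at 2.12 lies above all 35 neighbours, Polr2b lies near 0, and Adgrl3 lies at -2.84.

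Igfbp7 is also a gene of vessel-associated cells, so markers of these cells are given beside its rise. Of 9 pericyte and smooth muscle markers, 7 were tested, and 3 rose and none fell in limma and in limma voom. At an unadjusted p under 0.05, 4 were higher and 1 was lower. Their summed level was 1242 and 1546 normalized counts in resistant and 733 and 642 in control libraries. The most abundant, the receptor gene Notch3, had 368 and 444 normalized counts against 214 and 208 (0.93 ± 0.18, limma, adjusted p = 0.021), while the pericyte channel gene Kcnj8 had 2 reads in resistant replicate 2 and 0 in the others. The other 2 that rose were Pdgfrb and Des (1.00 ± 0.20 and 2.08 ± 0.27). Of the 4 tested markers that did not pass, Acta2 was at 1.33 ± 0.54 and Rgs5 at -0.050 ± 0.26. Myh11 was at -0.88 ± 0.84, and Abcc9, the 1 lower at the unadjusted threshold, at -1.64 ± 0.53. Of 9 endothelial markers, 4 were tested and 1 rose: Vwf, the gene for von Willebrand factor, had 153 and 211 normalized counts in resistant and 46.1 and 22.2 in control libraries. The endothelial genes Cldn5, Cdh5 and Kdr had 0 to 2 reads in each library, whereas Pecam1 had 12 to 22, Tie1 30 to 59 and Plvap 19 to 36, and these 3 did not pass. The summed endothelial level was 228 and 301 against 172 and 97.8 normalized counts. Of 9 fibroblast markers 4 were tested, with none higher and 1, Dcn, lower, and Pdgfra was the most abundant (6940 and 8313 against 8504 and 5766 normalized counts). Igfbp7 was lowest in control replicate 2, the library with the most Col1a1 and Col1a2. Without that library its log2 difference was 2.03, a value that does not bear on other cells in the remaining libraries. Single markers of other cell types rose as well. Of 9 macrophage markers, only Cd68 was tested, and the other 8 were under the filter. Cd68 had 10566 and 9975 normalized counts in resistant and 3227 and 6349 in control libraries (1.18 ± 0.27, limma, adjusted p = 0.0356). Of 6 skeletal muscle markers, 3 were tested and 1 rose. This was the troponin gene Tnnt3, with 138 and 132 against 46.1 and 37.3 (1.68 ± 0.26, limma, adjusted p = 0.00872). Mylpf and Acta1 did not pass (0.39 ± 0.25 and 0.90 ± 0.62). Over all 63 markers, 28 were tested, 9 rose and 3 fell, which is 42.9% called beside 10.1% of all tested genes. What part other cells have in the Igfbp7 level was not tested. In bulk samples, fewer cells of a type and less RNA per cell cannot be told apart.

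The genes whose profile over the 4 libraries was closest to that of Igfbp7 were Nxf3, Msln and Zbtb7c. Likeness was the root mean square difference of log2 values, each centred on the gene's mean, among tested genes with a mean of at least 100. It was 0.071 for Nxf3, a member of the nuclear RNA export factor family, 0.078 for Msln, which encodes the cell-surface glycoprotein mesothelin, and 0.088 for the zinc finger gene Zbtb7c. Msln had 6034 and 7031 normalized counts in resistant and 1709 and 1592 in control libraries. With only 4 libraries and 1 contrast, any gene with a similar fold change will appear alike.

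The ligand was scarce. Igf1 (ENSMUSG00000020053.18, chromosome 10, 87858265 to 87937042, plus strand) had 10 and 21 reads in the resistant libraries and 10 and 7 in the controls. In normalized counts these are 10.2 and 22.5 against 9.61 and 7.06, so the groups are separated by less than 1 count and the resistant replicates differ from each other by more. The difference of 0.81 ± 0.51 did not pass (limma, adjusted p = 0.361), and its 95% interval of -0.38 to 2.00 spans from a fall to a 4.01-fold rise. Igf1 passed the filter with a mean above only 2.56% of tested genes. Igf2, Ins1 and Ins2, the remaining ligand genes, had 0 reads in every library. For Igf2 the exons overlap those of the gene model Gm49394 on the same strand over 62.8% of their bases, where reads can be lost to both genes; Gm49394 had 1 read in all.

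The receptors were abundant in both groups. Igf1r (ENSMUSG00000005533.10, chromosome 7, 67952827 to 68233668, plus strand) had 9638 and 10929 normalized counts in resistant and 10440 and 11182 in control libraries. The groups interleaved, and the difference of -0.074 ± 0.11 did not pass (limma, adjusted p = 0.724). The 95% interval was 0.792-fold to 1.14-fold, which reflects the spread among these libraries only and sets no limit on a change between tumors. Its sign was not fixed, since the difference was 0.016 without resistant replicate 1.

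Insr, the insulin receptor gene (ENSMUSG00000005534.10, chromosome 8, 3122061 to 3279617, minus strand), had 7401 and 8299 normalized counts in resistant and 6772 and 7155 in control libraries. Both resistant libraries were higher, but the difference of 0.17 ± 0.11 did not pass (limma, adjusted p = 0.367; 95% interval 0.944-fold to 1.34-fold). Igf1r and Insr products can pair into hybrid receptors, so their proportion is of interest. Per kb of exon, the ratio of Igf1r to Insr was 1.07 and 1.08 in resistant and 1.26 and 1.28 in control libraries. These ratios did not overlap between the groups, but 2 against 2 libraries cannot give a two-sided exact permutation p below 0.333.

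Igf2r, which is outside the 10 genes, was the receptor that rose. It encodes the cation-independent mannose 6-phosphate receptor, which removes IGF2 by endocytosis, sends lysosomal enzymes to lysosomes and has no kinase. Igf2r had 29228 and 35469 normalized counts in resistant and 23050 and 18594 in control libraries, a difference of 0.64 ± 0.15 (limma, adjusted p = 0.0395). Both resistant libraries lay above both controls. The call ended without resistant replicate 1 (0.78, adjusted p = 0.0985) and without resistant replicate 2 (0.50, adjusted p = 0.336). Per kb, Igf2r stood 5.47 and 5.85 times above Igf1r in resistant and 3.98 and 3.00 times in control libraries.

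Both docking protein genes were expressed, and their groups overlapped. Irs1 (ENSMUSG00000055980.2, chromosome 1, 82233101 to 82291416, minus strand) had 1343 and 1569 normalized counts in resistant and 1189 and 1424 in control libraries, a difference of 0.16 ± 0.15 (limma, adjusted p = 0.538; 95% interval 0.882-fold to 1.41-fold). Irs2 (ENSMUSG00000038894.7, chromosome 8, 10984681 to 11008458, minus strand) had 3688 and 4271 against 3804 and 3913, a difference of 0.041 ± 0.11 (limma, adjusted p = 0.861; 95% interval 0.855-fold to 1.24-fold). Irs2 changed sign without resistant replicate 2, at -0.065. In both genes replicate 2 was the higher library of each pair. Per kb, Irs2 exceeded Irs1 by 3.97 and 3.94 times in resistant and by 4.63 and 3.97 times in control libraries.

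Ordered by mean normalized counts per kb of exon in resistant libraries, the tested genes ran Igfbp4 (18345 ± 1689), Irs2 (629 ± 65.2), Igf1r (612 ± 54.3), Insr (571 ± 46.2), Igfbp7 (341 ± 33.1), Irs1 (159 ± 17.5) and Igf1 (1.65 ± 0.881; SD, n = 2 each). Irs2 and Igf1r lay within each other's spread there, as did Igf1r and Insr. In control libraries the order was Igfbp4 (14415 ± 2368), Igf1r (644 ± 31.2), Irs2 (610 ± 12.2), Insr (507 ± 19.7), Irs1 (143 ± 18.2), Igfbp7 (77.6 ± 7.11) and Igf1 (0.841 ± 0.182). Igfbp7 thus stood below Irs1 in both control libraries and above it in both resistant ones. Annotated exon length overstates the transcript length of genes with many isoforms, so these levels are approximate.

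**Figure D4:**
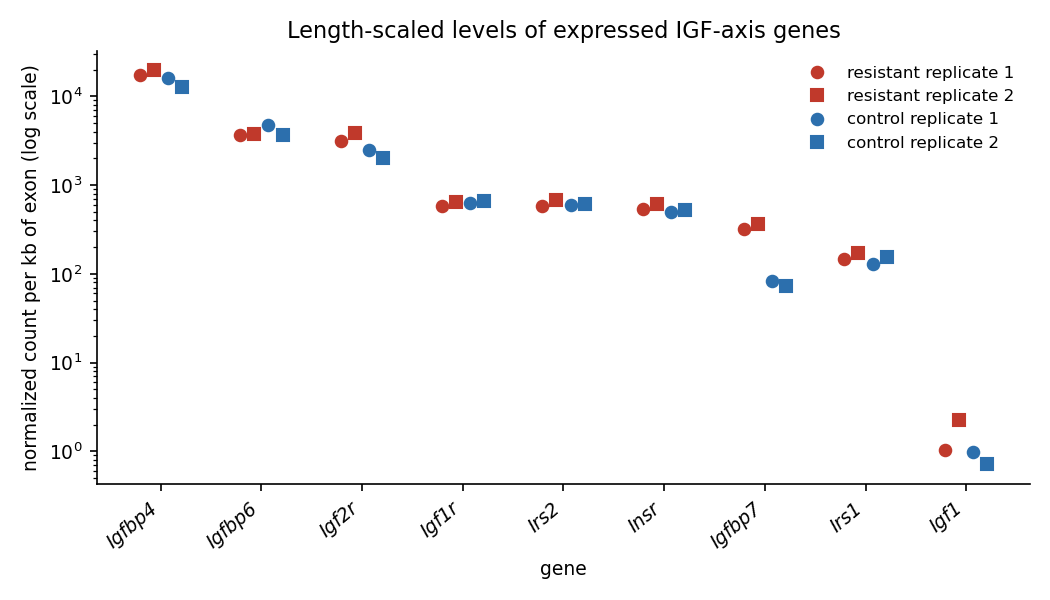
Normalized counts per kb of annotated exon (log scale) of the expressed IGF-axis genes, ordered by mean level, with red for resistant, blue for control, circles for replicate 1 and squares for replicate 2. Igfbp4 lies highest at 12741 to 19539, and Igfbp7 lies above Irs1 in the red points and below it in the blue ones.

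Around the 10 genes, lists of 78 further genes of the pathway were described by role. Of these, 66 were tested, 9 rose and 3 fell, which is 18.2% called beside 10.1% of all tested genes. Their median log2 fold change was 0.042. The lists were drawn up with earlier results of these libraries known, so the share is a description. Counts at an unadjusted p under 0.05 have no share of all genes beside them and are no result about a list.

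Among the enzymes that cut binding proteins and their inhibitors, both stanniocalcins changed, in opposite directions. Stanniocalcins are secreted glycoproteins that bind and inhibit the pappalysin proteases. Stc1 rose from 59.6 and 57.5 normalized counts in control to 140 and 174 in resistant libraries (1.40 ± 0.24; limma, adjusted p = 0.0139). Stc2 fell from 135 and 203 to 23.4 and 23.6 (-2.77 ± 0.30; limma, adjusted p = 0.00193). The groups did not overlap for either gene; the Stc1 call ended without either resistant library (adjusted p = 0.0792 and 0.189), and that of Stc2 held without each library in turn. Of their targets, Pappa, the protease that cuts Igfbp4, had 1 read in each control library and 0 in the resistant ones, and Pappa2, which cuts Igfbp3 and Igfbp5, had 114 and 116 against 119 and 117 normalized counts (-0.038 ± 0.21, adjusted p = 0.932). The serine protease gene Htra1 was the most abundant of the list, with 36381 and 32423 against 41750 and 43830 normalized counts. Its difference of -0.32 ± 0.12 did not pass (limma, adjusted p = 0.148).

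Adaptors below the receptors fell in part. Of 9 docking proteins and adaptors, 7 were tested, 2 fell and none rose; at an unadjusted p under 0.05, 2 were lower and 1 higher. Gab1, a docking protein that recruits phosphoinositide 3-kinase and the phosphatase Shp2 to growth factor receptors, fell from 654 and 665 normalized counts in control to 61.1 and 83.7 in resistant libraries. The log2 fold change was -3.19 ± 0.21 (limma, adjusted p = 0.000415), and the call held without each library in turn. Shc1, the adaptor that links receptors to Grb2 and Ras, went from 13296 and 10194 to 6817 and 7440 (-0.71 ± 0.14; limma, adjusted p = 0.024). That call ended without either resistant library (adjusted p = 0.159 and 0.0853). Gab1 and Shc1 serve many receptors besides those of the IGF axis.

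None of 8 receptor inhibitors passed in limma or limma voom, and 1 of the 7 tested was lower and 0 higher at an unadjusted p under 0.05. The most abundant was Nedd4, a ubiquitin ligase that acts on Igf1r with the adaptor Grb10, at 99829 and 106688 against 92073 and 94882 normalized counts (0.14 ± 0.13, limma, adjusted p = 0.548). Grb10 itself had 4 reads in control replicate 2 and 0 in the others, and it was not tested.

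Of 15 genes of the phosphoinositide 3-kinase and Akt arm, all were tested, 1 rose and none fell in limma or limma voom, beside 2 higher and 2 lower at an unadjusted p under 0.05. Pdpk1, the kinase that activates Akt, rose from 4301 and 4802 to 6175 and 6230 normalized counts (0.45 ± 0.11; limma, adjusted p = 0.0399). The call ended without either resistant library (adjusted p = 0.311 and 0.306) and with scaling to total reads (0.0598). Akt1, the most counted gene of this arm, had 21690 and 25753 against 28388 and 18703, with overlapping groups (0.037 ± 0.20, adjusted p = 0.928).

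Of 11 genes listed for the mTORC1 arm, which include Rictor of the related complex mTORC2, 2 rose and none fell in limma or limma voom. At an unadjusted p under 0.05, 6 were higher, Rictor among them (0.38 ± 0.13), and 0 lower. No share of all genes at that threshold is set beside them. Deptor, an inhibitory partner of mTOR, rose from 2066 and 1827 to 3681 and 3906 normalized counts (0.96 ± 0.12; limma, adjusted p = 0.00322). Its call held without each library in turn. Eif4ebp1, the translation repressor that mTORC1 inactivates, went from 6987 and 7222 to 9504 and 9450 (0.42 ± 0.10; limma, adjusted p = 0.0399), a call that ended without either resistant library (adjusted p = 0.369 and 0.332) and with scaling to total reads (0.0589).

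Of 15 FoxO factors and FoxO target genes, 3 rose and none fell in limma or limma voom. At an unadjusted p under 0.05, 7 were higher and 1 lower, again without the share of all genes. The median of the list was 0.29. Gadd45a, a stress and growth arrest gene, rose from 4794 and 5313 to 13232 and 11137 normalized counts (1.27 ± 0.12; limma, adjusted p = 0.00128), and its call held without each library in turn. Sesn3, a sestrin that restrains mTORC1, went from 8416 and 6386 to 11766 and 13508 (0.78 ± 0.15; limma, adjusted p = 0.0209). The mitochondrial superoxide dismutase Sod2 went from 1448 and 1583 to 2193 and 2196 (0.54 ± 0.11; limma, adjusted p = 0.0287). Sesn3 lost its call without resistant replicate 2 (adjusted p = 0.136), and Sod2 without either resistant library (0.259 and 0.252). The FoxO genes themselves did not pass, and the most abundant target, Txnip, had overlapping groups (0.027 ± 0.15, adjusted p = 0.928). All of these target genes also respond to other factors.

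**Figure D5:**
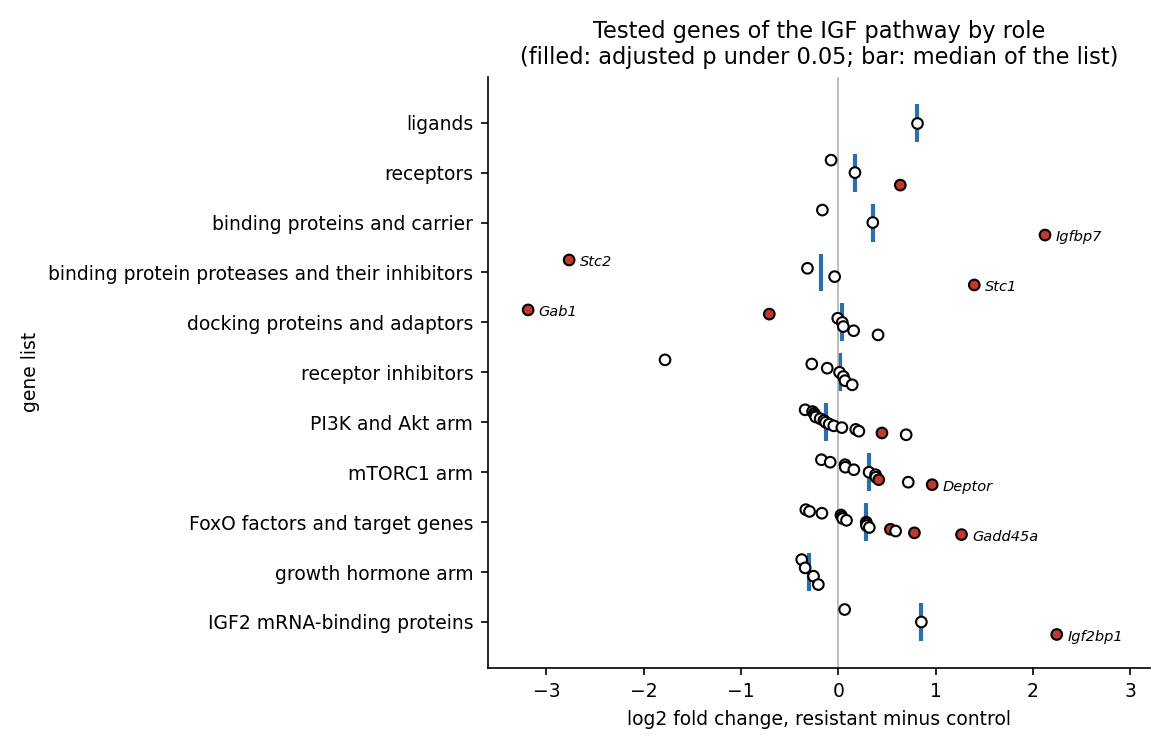
Log2 fold change, resistant minus control, of the tested genes of the IGF pathway in 11 lists by role, with filled points for an adjusted p under 0.05 and a blue bar at the median of each list. Most points lie near 0, with Igfbp7 at 2.12, Stc1 at 1.40 and Igf2bp1 at 2.24 on the right and Gab1 at -3.19 and Stc2 at -2.77 on the left.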

How the data were processed

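Bulk RNA sequencing libraries of 4TO7 cells, 2 from resistant and 2 from control tumors, were compared. The deposited table holds log2 values; the submitters' processing notes name STAR, DESeq2 and mm10, without versions. The authors' scale, worked out from the numbers, is the log2 of 1 plus a size-factor-normalized count: at a tolerance of 0.01 reads, 100% of values in each library were whole multiples of 1 step, and dividing by it gave reads. Columns were matched to samples by title. Symbols were joined for 55144 of 55385 identifiers; coordinates and exon lengths are from GENCODE M21 (GRCm38, the mm10 assembly). The limma 3.58.1 fit (R 4.3.3) took all genes averaging 10 or more normalized counts (trend, no block, pseudocount 1), adjusted by Benjamini-Hochberg at 0.05. A fold on that scale understates changes of low genes. On simulated reads for 14238 genes, 58%, 84%, 100% and 100% of 50 genes changed 1.5, 2, 4 and 8-fold were called, with 11 unchanged genes. The simulation gave all genes and both groups the same fixed spread, not fitted to these libraries, so its rates check the method only. Alternatives changed the pseudocount, filter, scaling, moderation, model (limma voom), block and libraries. Members and lists were chosen with earlier results of these data known. Named were all 10 members, pathway genes past the threshold, the most abundant gene of each list, the nearest tested neighbours of Igfbp7 and the 3 most similar genes; other genes named were chosen after their values were seen.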

Additional observations from a re-analysis of the deposited data

How the results depend on the processing

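Igfbp7 kept its direction and call under all 14 alternatives, at 2.03 to 2.22 (highest adjusted p 0.017, with no filter on low values). Of the other 6 tested members, Igfbp4 was at 0.52 without control replicate 1, and it passed under the crossed pairing described below (limma, adjusted p = 0.0104). Igf1r changed sign without resistant replicate 1 (0.016) and kept it without resistant replicate 2 (-0.16). Irs2 changed sign without resistant replicate 2 (-0.065) and kept it without resistant replicate 1 (0.15). In each left-out fit the lone library is assumed to vary like the other group. Leaving out 1 library gave 1 to 2 members called higher, 3 to 19 pathway genes higher and 2 to 11 lower (10 and 3 with all libraries), and 146 to 2074 of all genes higher and 234 to 1993 lower (758 and 674). With no filter, 3 pathway genes were higher, 126 of all genes were higher and 185 lower, and the calls of Igf2r, Stc1, Shc1, Pdpk1, Eif4ebp1, Sesn3, Sod2 and Igf2bp1 ended (adjusted p = 0.0674 for Stc1 to 0.15 for Igf2r). The replicate block, for numbers that only name samples, called 628 genes higher and 585 lower, with 8 and 4 in the pathway, and ended the calls of Eif4ebp1, Pdpk1 and Sod2. Same-numbered deviations correlated at -0.36; the crossed pairing, added after seeing the data, called 2402 higher and 2182 lower, with 23 and 14 in the pathway and 2 members higher. Igfbp2, Igfbp3 and Igfbp5 are limited by depth and have no value here. The causes of these changes were not tested.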

Other observations

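Of the 3 IGF2 mRNA-binding proteins, which are RNA-binding proteins of fetal and tumor cells, 1 rose and none fell in limma or limma voom, with 2 higher and 0 lower at an unadjusted p under 0.05. Igf2bp1 had 99.9 and 125 normalized counts in resistant and 13.4 and 38.3 in control libraries, without overlap (2.24 ± 0.47; limma, adjusted p = 0.0265). Its call ended without resistant replicate 1 (adjusted p = 0.0642) and without resistant replicate 2 (adjusted p = 0.126). Igf2bp2 was far more abundant, at 12973 and 12992 against 12556 and 12259 normalized counts (0.065 ± 0.10, adjusted p = 0.727). The growth hormone receptor arm, which drives Igf1 transcription in liver, had 4 genes tested, 0 of which passed in limma or limma voom, with 0 higher and 2 lower at an unadjusted p under 0.05. All 4 values were negative, with a median of -0.30, and Jak2, the most abundant, had 4057 and 4356 against 5964 and 4752 normalized counts (-0.34 ± 0.13, adjusted p = 0.155).

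Around Igf1r, the nearest tested genes on both sides rose while Igf1r did not pass. Synm, which encodes an intermediate filament protein, lies 193 kb before it and had 613 and 615 normalized counts in resistant and 112 and 156 in control libraries (2.20 ± 0.21; limma, adjusted p = 0.00109). The arrestin-related gene Arrdc4, 503 kb after it, had 3445 and 3689 against 2258 and 2282 (0.65 ± 0.11; limma, adjusted p = 0.0112). Beside other members, nearest tested genes that passed had fallen. These were Tns1 after Igfbp2 and Igfbp5 (-1.67 ± 0.24), Ramp3 before Igfbp3 (-1.44 ± 0.17), Col4a1 after Irs2 (-0.49 ± 0.13) and Adgrl3 after Igfbp7. The remaining nearest tested genes did not pass. Within 5 Mb of Igf1r, 4 of 31 other tested genes rose and 0 fell in limma, with a median of 0.051. The share called as higher was 12.9% there beside 5.32% of all tested genes. It rests on 4 genes and was the highest among the windows around the 10 members. The other windows ran from 0% to 10.4%, the latter around Irs1, where 5 genes rose and 6 fell.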
